A study of Mus musculus with 6 samples.

Results

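The genes described here encode the enzymes that make UDP-N-acetylglucosamine (UDP-GlcNAc) through the hexosamine pathway and the pair of enzymes that add and remove O-GlcNAc on proteins. They are Gfpt1, Gfpt2, Gnpnat1, Pgm3, Uap1, Uap1l1, Nagk, Ogt and Oga, taken by symbol from the deposited table, which lists Oga under its current symbol. All 9 were among the table's 23381 genes, and 8 of the 9 were expressed high enough to be tested, against 11818 genes in all. RNA came from mammary tumours that 4T1 cells, a mouse mammary carcinoma line, had formed in Balb/c mice. Per the labels, the mice were 10 weeks old and each inguinal fat pad graft held 500000 cells. Of the sampled tumours, 3 were controls from mice given the vehicle DMSO and 3 came from mice given Vismodegib, with 2 mg in each dose, dosed 3 times a week over 3 weeks from the time that tumours were established. The drug inhibits Smoothened, the membrane protein that relays Hedgehog signals. Both groups carried the same cell line in the same host strain, so that tumour cells and host cells were sequenced together.

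The hexosamine pathway diverts a small part of the glucose that enters a cell. Gfpt1 and Gfpt2 are isozymes of the first and rate-limiting step, which joins fructose phosphate with an amino group from glutamine. Gnpnat1 acetylates the product, Pgm3 moves its phosphate group, and Uap1 joins it with uridine triphosphate to give UDP-GlcNAc. Nagk feeds N-acetylglucosamine recovered from degraded glycans back into the pathway. UDP-GlcNAc is the donor sugar for N-glycans, hyaluronan and other glycans, and for Ogt, which places single O-GlcNAc residues on nuclear and cytosolic proteins that Oga then removes. Xbp1, a transcription factor of the unfolded protein response, is known to activate Gfpt1 and other genes of the pathway.

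Levels are given in RPKM, reads scaled by gene length and by library size, always in the order of replicates 1, 2 and 3 of a group. Each library held 34800000 to 58000000 reads, as recovered from the steps of the lowest values. Epcam, Krt8 and Krt18, from a list of 8 markers of epithelial cells, were at 146 RPKM or more in every library. Others of the list were lower, such as Elf3 at 8.34 to 72.9 RPKM. In 3 of the 8 every Vismodegib library was above every DMSO library (4.29% of all genes tested), and in 0 the reverse (0.745%). Across genes, values in DMSO replicate 2 and Vismodegib replicate 3 rose with GC content relative to the other libraries (correlations of 0.21 and 0.29 between GC content and the deviation from a gene's mean), and those in Vismodegib replicates 1 and 2 fell with it (-0.23 and -0.35). With the logarithm of transcript length that deviation had correlations of -0.21 in DMSO replicate 2 and 0.26 in DMSO replicate 3. In the other libraries they were -0.08 to 0.10. The labels do not say that each library came from its own animal, so p-values measure only the spread between these samples. Fewer cells of a type and less RNA per cell cannot be told apart in such bulk samples.

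Sequences upstream of Gfpt1, Pgm3 and Gfpt2 are shown because the first 2 hold the core letters of the unfolded protein response element and the last, the isozyme of Gfpt1, does not. Each runs from 170 bases before to 30 bases after the start of transcription in RefSeq (build GRCm38.p6), 5′ to 3′ on the gene's strand, with the core CCACGT in capitals.
Gfpt1, chr6:87042676-87042875, plus strand: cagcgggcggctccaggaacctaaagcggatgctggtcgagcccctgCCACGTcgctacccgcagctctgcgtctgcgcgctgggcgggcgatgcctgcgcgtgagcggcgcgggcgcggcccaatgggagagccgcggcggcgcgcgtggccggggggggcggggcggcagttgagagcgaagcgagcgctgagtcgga
Pgm3, chr9:86571813-86572012, minus strand: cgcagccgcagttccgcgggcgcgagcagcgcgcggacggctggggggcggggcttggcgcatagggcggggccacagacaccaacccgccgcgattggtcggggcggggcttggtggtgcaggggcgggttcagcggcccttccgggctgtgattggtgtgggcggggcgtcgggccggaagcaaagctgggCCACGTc
Gfpt2, chr11:49793985-49794184, plus strand: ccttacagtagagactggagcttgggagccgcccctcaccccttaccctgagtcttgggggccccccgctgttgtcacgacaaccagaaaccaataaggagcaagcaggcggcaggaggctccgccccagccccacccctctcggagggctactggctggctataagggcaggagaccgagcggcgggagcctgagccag
The core begins 123 bases before the start of Gfpt1 and 23 bases after that of Pgm3. RefSeq windows were at hand for 7 of the 9 genes, without Gnpnat1 and Uap1l1. Searched on both strands over 300 bases (250 before and 50 after the start), CCACGT was in the windows of Gfpt1 and Pgm3 and not in those of Gfpt2, Uap1, Nagk, Ogt and Oga. It was in 8.31% of all 32851 windows. A match describes letters only and is not evidence of binding.

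Uap1l1, a paralogue of Uap1 whose enzymatic role is less well established, had by far the highest level of the 9 genes (GENCODE M21 on mm10: ENSMUSG00000026956.15, chromosome 2, 25359889 to 25365682, minus strand). Its mean over the 6 libraries was 36.3 ± 12.5 RPKM (SD, n = 6), above 89.6% of the genes tested. Nagk followed at 6.97 ± 1.37 RPKM, Ogt at 6.64 ± 2.75, Oga at 5.21 ± 1.19, Gnpnat1 at 3.90 ± 0.893, Gfpt1 at 3.47 ± 1.45 and Uap1 at 3.36 ± 0.846. Pgm3 was lower, at 1.43 ± 0.428 RPKM, and Gfpt2 lowest, at 0.297 ± 0.165 RPKM. The steps from Uap1l1 to Nagk, from Uap1 to Pgm3 and from Pgm3 to Gfpt2 held in 6 of 6 libraries. Between them the order was looser: Nagk exceeded Ogt, Ogt exceeded Oga, Gnpnat1 exceeded Gfpt1 and Gfpt1 exceeded Uap1 in 4 libraries each, by less in the mean than the larger SD of the pair. Oga exceeded Gnpnat1 in 5 libraries, by more in the mean than either SD. Relative to its mean, Nagk varied least (coefficient of variation 19.6%) and Gfpt2 most (55.8%), where the median over all genes tested was 29.2%.

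**Figure D1:**
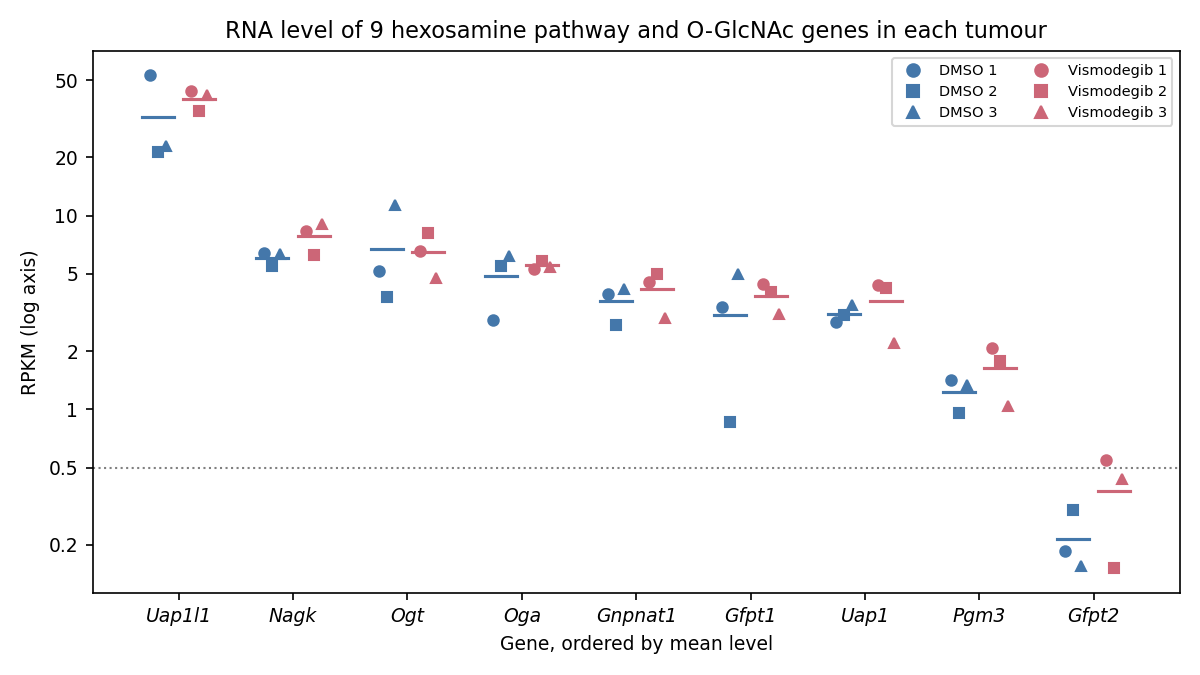
RPKM (log axis) of the 9 genes, ordered by mean level, in 3 DMSO and 3 Vismodegib tumours. Points are libraries, bars are group means and the dotted line marks the filter of 0.5 RPKM. Uap1l1 lies at 21.3 to 53.1 RPKM, above the other 8 genes, and Gfpt1 in DMSO replicate 2 lies at 0.861 RPKM, below its other 5 values.

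The comparison of Vismodegib with DMSO asked whether blocking Smoothened was accompanied by a change in this pathway's transcripts. None of the 8 tested genes passed at an adjusted p under 0.05, as none of the 11818 genes did (0% of genes called by limma with Benjamini-Hochberg adjustment, where every adjusted p = 1). At an unadjusted p under 0.05 the count was 0 of 8 against 266 of all genes, or 2.25%. With library weights limma called 420 of all genes, and without DMSO replicate 1 it called 19, with none of the 8 among either. All 8 differences lay above 0, from 0.06 for Ogt to 0.50 for Gfpt1 on the log2(RPKM + 0.5) scale, with a median of 0.25. The median over all genes was 0.05, and 58.4% of all genes lay above 0. In none of the 9 genes did the groups separate, where 4.29% of genes tested had every Vismodegib library above every DMSO library and 0.745% the reverse. Without DMSO replicate 2, 6 of the 8 differences stayed above 0, with -0.09 for Gfpt1 and -0.25 for Ogt.

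**Figure D2:**
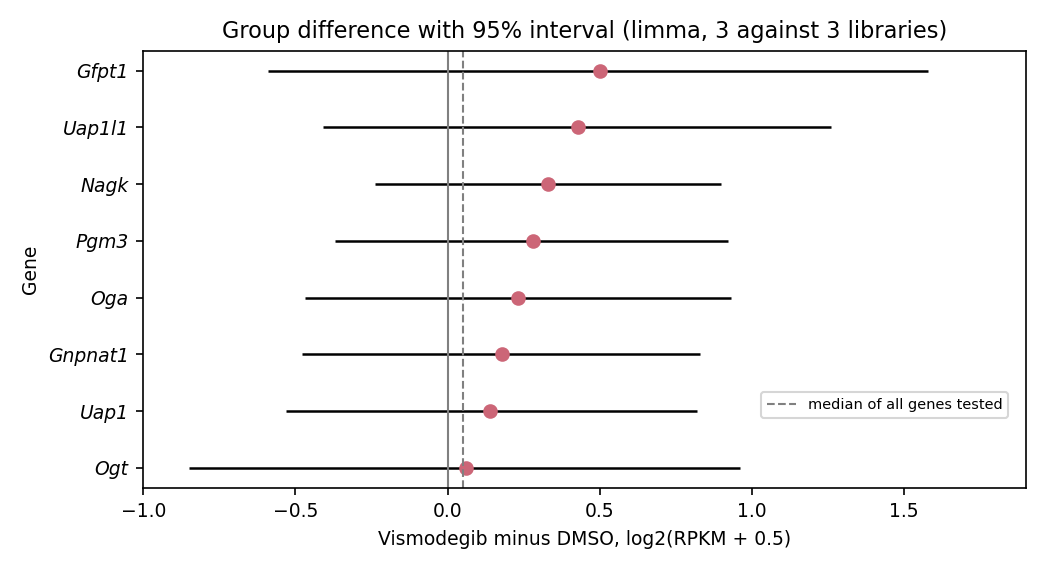
Vismodegib minus DMSO on the log2(RPKM + 0.5) scale for the 8 genes tested, with 95% intervals from limma (3 against 3 libraries). All 8 intervals span 0, and that of Gfpt1, from -0.59 to 1.58, is the widest.

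Gfpt1, the first enzyme of the pathway (ENSMUSG00000029992.14, chromosome 6, 87042846 to 87092197, plus strand), had levels of 3.36, 0.861 and 4.99 RPKM in the controls, and of 4.45, 4.03 and 3.12 RPKM in the treated tumours. The treated tumours lay inside the range of the controls, which DMSO replicate 2 stretched downward. That value rested on about 187 reads, against 786 to 1260 in the other libraries. Group means were 3.07 ± 2.08 and 3.87 ± 0.683 RPKM (SD, n = 3), and the log2 difference was 0.50 (SE 0.477, 95% interval -0.59 to 1.58, limma). Relative to the mean of the 6 libraries, Gfpt1 in DMSO replicate 2 stood at -1.42 on the log2 scale as deposited, and at -1.17 after correction of every library for GC content and transcript length. The 3 genes whose levels followed Gfpt1 most closely over the 6 libraries were Hccs, Lnpk and Celf1 (Pearson r of 0.999, 0.993 and 0.992, as a description). They were the top of all 11818 genes tested, so a high r over 6 libraries, and shared extremes, follow in part from that choice. The same holds for the closest genes of Gfpt2, Ogt and Oga. Hccs, which attaches heme to cytochrome c, had its lowest level, 1.16 RPKM, in DMSO replicate 2, and 1.89 to 2.24 RPKM elsewhere.

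Gfpt2, the isozyme found in fewer tissues (ENSMUSG00000020363.6, chromosome 11, 49794178 to 49838613, plus strand), was too low to enter the fit across genes. The controls had 0.186, 0.303 and 0.155 RPKM, and the treated tumours 0.550, 0.151 and 0.435 RPKM. Vismodegib replicates 1 and 3 were highest and replicate 2 was lowest, so the groups overlapped. These values rested on 18 to 74 reads, and 3 reads correspond to at most 0.0292 RPKM. Means of 0.215 ± 0.078 and 0.378 ± 0.205 RPKM gave a two-sided exact permutation p = 0.4 (n = 3 per group), and with 3 libraries against 3 no p below 0.1 can be reached. Beside Gfpt2, the summed level of 10 fibroblast markers was 95.8, 125 and 104 RPKM among controls, with 192, 118 and 235 RPKM under Vismodegib, highest in the same 2 libraries. No fibroblast marker was at 0 in any library, and the part of fibroblasts in the level of Gfpt2 was not tested. Of the 9 tested fibroblast markers, 0 passed in limma over all genes, as no gene did. All 9 differences lay above 0, with a median of 0.74, against 0.05 for all genes. At an unadjusted p under 0.05 in limma the count was 4 of 9, against 2.25% of all genes. In 3 of the 9 every Vismodegib library was above every DMSO library, against 4.29% of all genes tested. Vismodegib replicate 1 was among the 2 highest libraries for 8 of these 9 and Vismodegib replicate 3 for 6. These libraries were highest for 3 and 5 of the 9, against 26.9% and 12.9% of all genes tested. Pdgfra was highest in DMSO replicate 1, at 2.16 RPKM. Col1a1 was the largest term of the sum in every library but DMSO replicate 3, where Thy1 was, at 36.2 against 32.8 RPKM. The fibroblast list was 1 of 10 cell type lists examined. Tmem98, Lgals2 and Metrnl followed Gfpt2 most closely (r of 0.983, 0.979 and 0.976 over 6 libraries).

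Gfpt2 reached a small share of the Gfpt1 level in most tumours. Its ratio to Gfpt1 was 0.0554, 0.352 and 0.031 in DMSO and 0.123, 0.0374 and 0.139 in Vismodegib. The highest ratio, in DMSO replicate 2, combined a low Gfpt1 with the highest Gfpt2 level of the control tumours. Mean log2 ratios were -3.56 ± 1.83 and -3.53 ± 1.05 (two-sided exact permutation p = 1, n = 3, and adjusted p = 1 over the 3 ratios computed).

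The acetyltransferase gene Gnpnat1 (ENSMUSG00000037722.8, chromosome 14, 45376334 to 45404913, minus strand) gave 3.92, 2.73 and 4.20 RPKM without and 4.57, 4.99 and 2.97 RPKM with the drug. Vismodegib replicates 1 and 2 were above all controls, while replicate 3 lay below all of them but DMSO replicate 2. Its log2 difference was 0.18 (SE 0.289, 95% interval -0.48 to 0.83, limma), with 0.009 without DMSO replicate 2 and 0.38 without Vismodegib replicate 3. Annotated exons of Styx on the other strand cover 81.9% of the exonic bases of Gnpnat1, and Styx was listed at 0.112 to 0.266 RPKM. Whether the counting used strand is not given in the sources used here, so reads of the overlap cannot be assigned with certainty.

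Pgm3, the phosphoacetylglucosamine mutase gene (ENSMUSG00000056131.13, chromosome 9, 86554377 to 86571842, minus strand), gave 1.41, 0.959 and 1.33 RPKM in the controls, then 2.07, 1.77 and 1.04 RPKM in the treated tumours. As for Gnpnat1, treated replicates 1 and 2 were highest and replicate 3 was among the controls. Pgm3 differed by 0.28 on the log2 scale (SE 0.283, 95% interval -0.37 to 0.92). Dop1a, convergent on the other strand, shares 28.3% of the exonic bases of Pgm3 and was listed at 0.035 to 0.195 RPKM.

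Uap1, which makes the finished UDP-GlcNAc (ENSMUSG00000026670.15, chromosome 1, 170141938 to 170174957, minus strand), had 2.81, 3.06 and 3.45 RPKM in the controls, then 4.40, 4.24 and 2.21 RPKM in the treated tumours. Treated replicates 1 and 2 again exceeded all controls, and replicate 3 was the lowest of the 6 tumours. The resulting difference was 0.14 (SE 0.299, 95% interval -0.53 to 0.82).

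Its paralogue Uap1l1 had 53.1, 21.3 and 23.0 RPKM in the controls, against 44.2, 34.6 and 42.0 RPKM in the treated tumours. DMSO replicate 1 was above, and the other controls were below, all 3 treated tumours. The log2 difference was 0.43 (SE 0.367, 95% interval -0.41 to 1.26), and without DMSO replicate 1 it was 0.84, with adjusted p = 0.33 in limma. With library weights it was 0.68, with adjusted p = 0.0893 in limma. The summed level of 6 endothelial markers was 26.7, 11.7 and 13.1 RPKM among controls, with 32.7, 15.4 and 21.6 RPKM under Vismodegib, so DMSO replicates 2 and 3 were lowest there too. None of these markers was at 0, and their part in the level of Uap1l1 was not tested. The sum was highest in Vismodegib replicate 1, whereas Uap1l1 was highest in DMSO replicate 1. Pecam1, the largest term, was at 7.79 RPKM in DMSO replicate 3 and lower, at 7.46 RPKM, in Vismodegib replicate 2. The endothelial list was 1 of 10 cell type lists examined.

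Uap1l1 exceeded Uap1 in every tumour, by 6.66 to 19.0 times. The ratio was 18.9, 6.98 and 6.66 in DMSO and 10.0, 8.17 and 19.0 in Vismodegib, highest in DMSO replicate 1 and Vismodegib replicate 3, which also had the lowest levels of Uap1. Between groups the log2 ratio differed by 0.28 (exact permutation p = 0.5, n = 3, adjusted p = 0.9). RPKM is scaled by gene length, but which transcript length the authors used is not given in the sources used here.

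**Figure D3:**
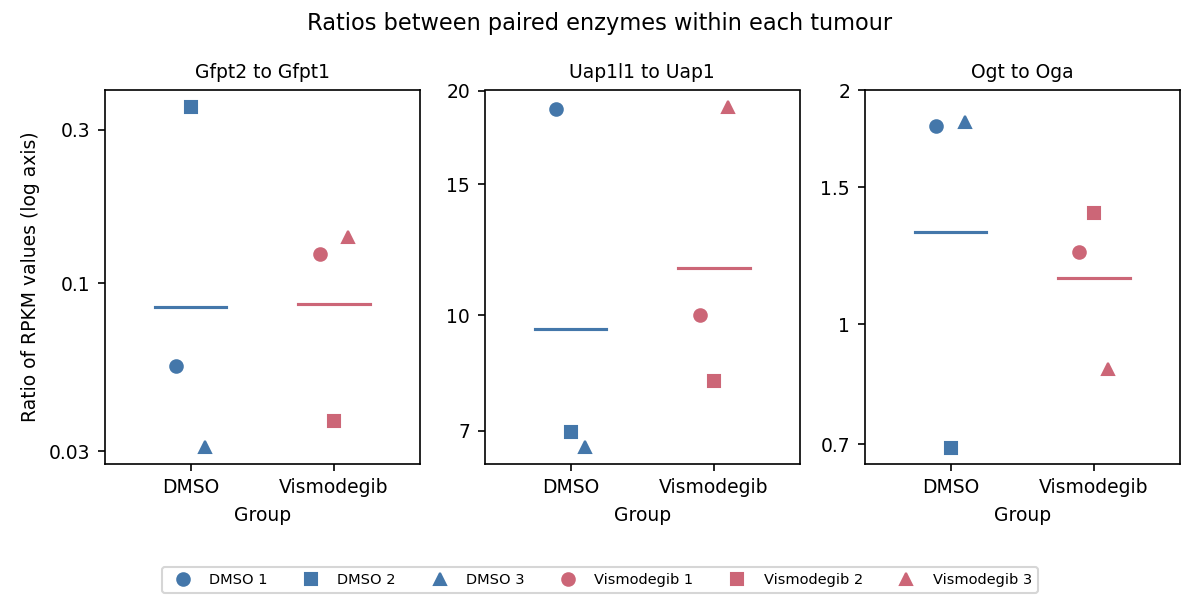
Ratios of RPKM values (log axes) within each of 3 DMSO and 3 Vismodegib tumours for Gfpt2 to Gfpt1, Uap1l1 to Uap1 and Ogt to Oga. Points are libraries and bars are geometric means, and the groups overlap in each panel. Uap1l1 to Uap1 stays between 6.66 and 19.0.

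Nagk, the salvage kinase gene (ENSMUSG00000034744.13, chromosome 6, 83794982 to 83804018, plus strand), was the steadiest. Controls had 6.41, 5.47 and 6.37 RPKM, and treated tumours 8.30, 6.27 and 9.01 RPKM. Treated replicates 1 and 3 lay above all controls and replicate 2 among them. The difference of 0.33 (SE 0.251, 95% interval -0.24 to 0.90) had the smallest unadjusted p of the 8 genes, 0.217 in limma.

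Ogt, the only enzyme known to add O-GlcNAc to nuclear and cytosolic proteins (ENSMUSG00000034160.13, chromosome X, 101640060 to 101684351, plus strand), had 5.17, 3.81 and 11.3 RPKM in the controls, against 6.59, 8.18 and 4.78 RPKM in the treated tumours. The controls held both the lowest and the highest value, and the 3 treated tumours lay between. Its difference was 0.06 (SE 0.397, 95% interval -0.85 to 0.96), and it was -0.02 with median-ratio or quantile scaling, -0.25 without DMSO replicate 2 and 0.47 without DMSO replicate 3. Prdm10, Cdk13 and 2310030G06Rik followed Ogt most closely (r of 0.996, 0.992 and 0.990 over 6 libraries). Cdk13, a kinase of transcription elongation, was at 0.555 RPKM in DMSO replicate 2 and 1.32 RPKM in DMSO replicate 3, its extremes as for Ogt.

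Oga, which removes O-GlcNAc (ENSMUSG00000025220.8, named Mgea5 in GENCODE M21, chromosome 19, 45750259 to 45783837, minus strand), had 2.88, 5.50 and 6.22 RPKM in the controls, against 5.32, 5.87 and 5.45 RPKM in the treated tumours. Only DMSO replicate 1 stood apart, below the other 5 libraries. The log2 difference was 0.23 (SE 0.308, 95% interval -0.47 to 0.93). Ofd1, Abcb10 and Alms1-ps2 had the closest patterns (r of 0.997, 0.995 and 0.990 over 6 libraries).

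An antisense gene, Gm15491, shares 551 exonic bases with the end of Oga and varied far more. Gm15491 was listed with 6.87, 0.0037 and 5.72 RPKM for the controls, and with 0.0181, 2.42 and 0.788 RPKM for the treated tumours. For a transcript of 751 bases these values correspond to about 193, 0, 174, 1, 78 and 34 reads. DMSO replicate 1 thus had the fewest Oga reads, 545, and the most Gm15491 reads. With these reads added to Oga, an alternative chosen after the data were seen, its level became 3.90, 5.50 and 7.07 RPKM for the controls, with 5.32, 6.23 and 5.57 RPKM for the treated tumours, and the log2 difference fell to 0.08 (exact permutation p = 0.8, n = 3). DMSO replicate 1 remained the lowest.

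**Figure D4:**
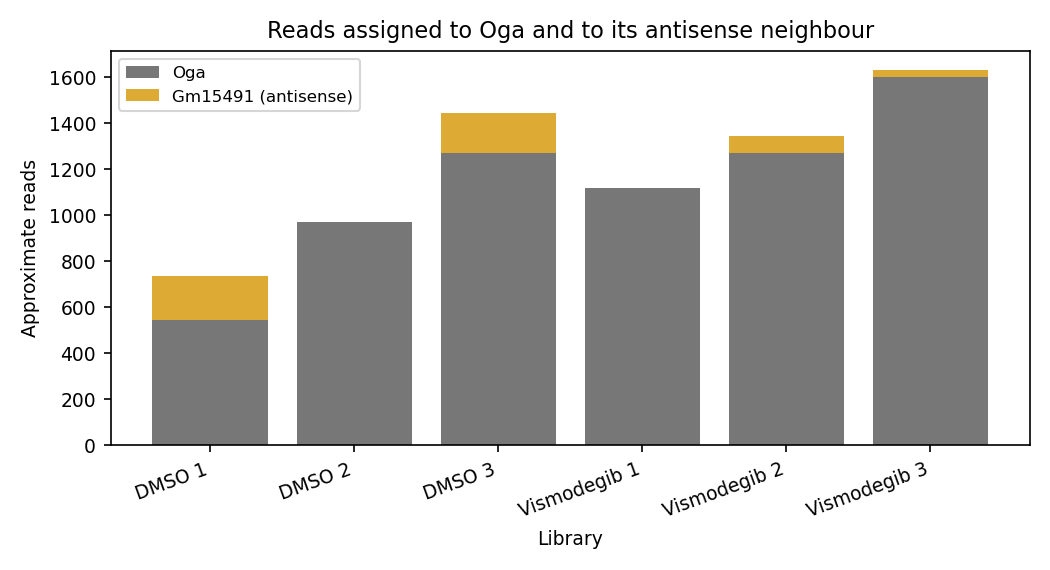
Approximate number of reads assigned to Oga (grey) and stacked on it to the antisense gene Gm15491 (yellow) in each of the 6 libraries, from the deposited RPKM values, transcript lengths and read totals. Gm15491 takes 193 reads in DMSO replicate 1 and 174 in DMSO replicate 3, and 0 to 78 in the others.

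The ratio of Ogt to Oga, the writer and eraser of the same mark, was 1.80, 0.693 and 1.82 in DMSO and 1.24, 1.39 and 0.876 in Vismodegib. The controls again spanned the treated tumours. Mean log2 ratios were 0.39 ± 0.80 and 0.20 ± 0.35 (exact permutation p = 0.6, n = 3, adjusted p = 0.9). With the Gm15491 reads added to Oga, the ratio in DMSO replicate 1 was 1.33, and the log2 difference between groups went from -0.20 to -0.027 (exact permutation p = 0.9, n = 3).

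By library, DMSO replicate 2 had the lowest value for 6 of the 9 genes (Gfpt1, Gnpnat1, Pgm3, Uap1l1, Nagk and Ogt) and the highest for none. Over all genes tested, this library held the lowest value in 23.7% and the highest in 29.8%. The median deviation of the 8 tested members from their means was -0.40 there on the log2 scale, against 0.04 for all genes. Vismodegib replicates 1 and 2 had medians of 0.30 and 0.29, against 0.18 and 0.00 for all genes. These medians and the correlations below use values as deposited. After correction for GC content and transcript length, every tested member was lower in Vismodegib replicate 1, with Gnpnat1 going from 0.23 to -0.10. In Vismodegib replicate 2 all but Uap1l1 and Nagk were lower, with Gnpnat1 going from 0.35 to 0.16. The same 6 genes remained lowest in DMSO replicate 2. The summed level of 6 markers of dividing cells was highest in DMSO replicate 2, at 118 RPKM, and 36.0 to 72.9 RPKM elsewhere. This library was highest for 5 of the 6 markers, and Mki67 was highest in DMSO replicate 3. The sum of 6 skeletal muscle markers was 127 RPKM in both DMSO replicate 2 and Vismodegib replicate 1, and 9.54 to 92.5 RPKM elsewhere. These were 2 of 10 cell type lists examined, and others were low in DMSO replicate 2. The endothelial sum was lowest there, at 11.7 RPKM. Of 8 epithelial markers, 4 were lowest and 2 highest in that library. The part of any of these lists in the members' levels was not tested. Of the 36 pairs of members, Gnpnat1 and Pgm3 had the highest Pearson correlation over the 6 libraries. Their Pearson r was 0.91 (exact permutation p = 0.0208, n = 6) and Spearman's rho 0.89 (p = 0.0333), with r = 0.71 without the 2 libraries farthest from the median of Gnpnat1. Gfpt1 and Gnpnat1 gave r = 0.79 (exact permutation p = 0.0194) and rho 0.77 (p = 0.103), with r = 0.86 without the 2 farthest libraries. Spearman's rho was highest for Gfpt1 and Ogt, at 0.94 (exact permutation p = 0.0167, adjusted p = 0.525), with r = 0.79. After Benjamini-Hochberg adjustment over the 36 pairs none passed. The r of Gnpnat1 with Pgm3 and that with Gfpt1 both had an exact permutation adjusted p = 0.375.

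Genes around the pathway were grouped in 6 lists of 50 genes in all, and none of their tested members passed in limma. Among 7 genes of sugar and glutamine supply, 3 differences were above 0 and 4 below, with a median of -0.24. That median turned to 0.19 when DMSO replicate 3 was left out and to 0.18 when Vismodegib replicate 3 was, and it was -0.031 when the fit lacked DMSO replicate 2. Glul, glutamine synthetase, had 7.85, 4.94 and 7.58 RPKM in the controls, against 28.1, 8.86 and 8.34 RPKM in the treated tumours. Its groups did not overlap, with Vismodegib replicate 1 far above the other 5 libraries, and the log2 difference was 0.90 (95% interval -0.14 to 1.93). Glul was the only tested gene of the 6 lists whose groups separated, where 4.29% of all genes tested had every Vismodegib library above every DMSO library. In the list of salvage, breakdown and sialic acid genes, 8 of 10 were above 0, with a median of 0.08. Its leading genes were Slc35a3, a Golgi transporter of UDP-GlcNAc, at 1.73 ± 0.556 and 2.16 ± 0.719 RPKM, and Gnpda1, a glucosamine phosphate deaminase that runs against the direction of Gfpt1, at 3.74 ± 0.192 and 4.34 ± 1.19 RPKM.

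Of the genes whose enzymes use UDP-GlcNAc for N-glycans, 7 of 9 were tested, 5 above 0 and 2 below, with a median of 0.27. Mgat2, a Golgi N-acetylglucosaminyltransferase, had means of 9.66 ± 3.32 RPKM for controls and 13.1 ± 4.48 RPKM for treated tumours, and Mgat4b, which adds a further branch, had means of 109 ± 15.3 and 133 ± 30.8 RPKM (SD, n = 3). In the hyaluronan list, 4 of 7 genes were tested, 3 above 0 and 1 below (median 0.12), led by Cemip2 with a difference of 0.36 and Hyal2 with 0.21, both linked to hyaluronan breakdown. Of 5 genes for OGT partners and extracellular O-GlcNAc, 4 were tested, 3 above 0 and 1 below, with a median of 0.18. Eogt, which adds O-GlcNAc to secreted proteins in the endoplasmic reticulum, was at 1.47 ± 0.219 and 2.07 ± 0.487 RPKM, and Tet3, a DNA demethylation enzyme that binds OGT, differed by 0.28.

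The ER chaperones and targets of Xbp1 had 12 tested genes, 9 above 0 and 3 below, with a median of 0.23. Without Vismodegib replicate 1 the median was 0.0064, and without Vismodegib replicate 3 it was 0.44. Vismodegib replicate 1 held the highest value for 8 of the 12, against 26.9% of all genes tested. Vismodegib replicate 3 was lowest for 4 of the 12, against 19.2% of all genes tested, and among the 2 lowest libraries for 9. Dnajb9, an ER co-chaperone and a target of Xbp1, had 7.60, 3.37 and 8.52 RPKM in the controls, against 14.3, 11.4 and 4.57 RPKM in the treated tumours. Dnajc3, another co-chaperone, had 6.76, 4.04 and 6.70 RPKM in the controls, against 11.1, 6.83 and 5.90 RPKM in the treated tumours. In both, Vismodegib replicates 1 and 2 were highest and DMSO replicate 2 was lowest, as in Pgm3. Neither passed in limma, with differences of 0.55 for Dnajb9 and 0.40 for Dnajc3.

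**Figure D5:**
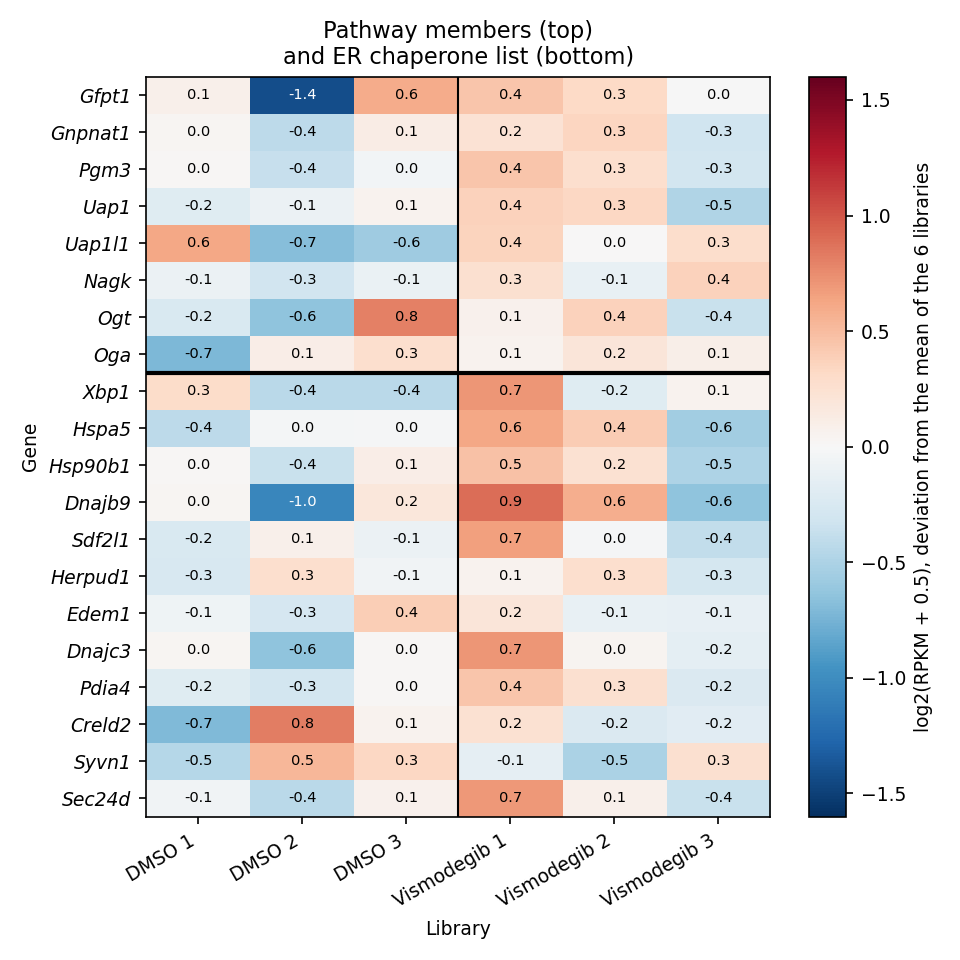
Deviation of log2(RPKM + 0.5) from its mean over the 6 libraries for the 8 tested pathway genes (top) and the 12 genes of the ER chaperone list (bottom), red above and blue below the mean. Gfpt1 in DMSO replicate 2, at -1.42, is the lowest cell of the upper part. In the lower part, 8 of the 12 ER genes are highest in Vismodegib replicate 1, as are 26.9% of all genes tested.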

How the data were processed

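The authors deposited RPKM values for 23381 gene symbols in 6 libraries, 3 per group by title. The submitters' processing notes name mm10, Partek, SAMtools, STAR, HISAT2, cutadapt and bcl2fastq 2.17; what each did, the gene models and strandedness were not given in the sources used here. RPKM depends on the length used and on the rest of the library. The members and gene lists were chosen with earlier results of these data known. Every gene whose mean reached 0.5 RPKM was tested by limma 3.58.1 (R 4.3.3) on log2(RPKM + 0.5) (trended eBayes, group only, two-sided, Benjamini-Hochberg over all 11818 genes, threshold 0.05). This scale understates changes of low genes. Gfpt2, below the filter, and ratios were compared by exact permutation (SciPy 1.17.1). Read totals came from the steps of low values of 7115 genes with 1 GENCODE M21 transcript; 83.2% to 84.7% of values up to 20 reads were whole within 0.02 reads, a check that cannot detect a total too high by a whole factor. Read numbers use each gene's longest transcript; floors of 3 reads cover counting error only. Named genes were all members, up to 2 genes with the smallest p per surrounding list (1 of them is not reported here), and the 3 closest patterns for Gfpt1, Gfpt2, Ogt and Oga. A simulation on 11818 genes, into which changes of 2, 4 and 8 times had been placed, called 88.7% of the 4-fold and 12.0% of the 2-fold changes. The deposited values behaved differently, as limma called 0 genes there. Apoc1, whose log2 difference was 2.22 (unadjusted p = 0.000158, limma), did not pass either. The simulated shares therefore cannot tell how often a 4-fold change of a member would have been called in these 6 libraries. Alternatives covered pseudocount, filter, scaling, variance model, library weights, replicate block, GC content with length, and each library left out.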

Additional observations from a re-analysis of the deposited data

How the results depend on the processing

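No member passed limma's test under any of the 19 alternatives, where the smallest adjusted p of a member was 0.0893, for Uap1l1 with library weights. Pgm3, Uap1l1 and Nagk stayed above 0 throughout, and the members' median ran from 0.15 to 0.39. Median-ratio and quantile scaling each turned Ogt to -0.02. Removal of trends on GC content and length turned Gnpnat1 to -0.00053 and Ogt to -0.056, with the replicate block too. Library weights turned Gfpt1 to -0.17, Ogt to -0.52 and Oga to -0.081, left 5 members above 0 and called 420 of all genes, with a weight of 7.28 on DMSO replicate 3. Leaving out 1 library at a time gave -0.09 to 0.92 for Gfpt1, -0.25 to 0.47 for Ogt, -0.071 to 0.43 for Oga, -0.0057 to 0.42 for Uap1, 0.009 to 0.38 for Gnpnat1, 0.12 to 0.49 for Pgm3, 0.19 to 0.84 for Uap1l1, 0.23 to 0.48 for Nagk and 0 to 19 calls over all genes, 19 of them without DMSO replicate 1. The replicate block called 1 gene over all genes and no member; same-numbered libraries had correlated deviations of 0, 0.04 and -0.30, so the numbers were not taken as pairs. The log2 ratio of Gfpt2 to Gfpt1 differed by 0.03, by -0.22 with 0.5 added to each RPKM, and by -0.69 to 1.06 with 1 library left out. Leaving out 1 library also gave -0.08 to 0.77 for Uap1l1 to Uap1 and -0.66 to 0.04 for Ogt to Oga. With 1 library left out, the median of the salvage list ran from -0.0058 to 0.17, of the N-glycan list from 0.11 to 0.32, of the hyaluronan list from -0.08 to 0.23 and of the OGT partner list from 0.064 to 0.29. Library weights turned the medians of the hyaluronan list to -0.18 and of the OGT partner list to -0.018, and removal of trends on GC content and length turned that of the salvage list to -0.0096. The cause of these changes was not tested. The 95% intervals of the members ran from -0.85 at the lowest end to 1.58 at the highest. The tested members rested on 89 reads or more in every library, and Gfpt2 on 18 to 74.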
